A study of Mus musculus with 18 samples.

Results

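The genes described here encode collagens, laminins and other structural proteins of the extracellular matrix: every protein-coding gene named as a collagen chain (Col, number, a, number) or a laminin chain (Lama, Lamb or Lamc with a number), and 14 further matrix genes (Fn1, Fbn1, Fbn2, Mfap2, Mfap5, Postn, Sparc, Bgn, Dcn, Lum, Nid1, Nid2, Hspg2 and Tnc). The rule, which uses names and no measured value, gave 69 of the 50689 features of the count table. RNA was sequenced from proliferating satellite cells (resident muscle stem cells) of C57BL6 mice, isolated from tibialis anterior and kept in growth medium on matrigel. The 9 control libraries come from Hoxa10f/f cells, which carry a conditional allele of Hoxa10 and for which the labels name no Cre. The 9 scKO libraries come from Pax7-CreERT2/+;Hoxa10f/f cells given 4-hydroxytamoxifen at 1 µM for 2 days; Cre is driven from Pax7, a gene of satellite cells. The labels give no such drug treatment for the controls, so the effects of losing Hoxa10, of Cre and of the drug cannot be told apart. The labels do not say whether the libraries are separate animals or cultures, so every p-value measures the spread between these libraries only, which may be technical.

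Collagens are trimers of alpha chains that assemble either into fibrils or into networks, and laminins are trimers of an alpha, a beta and a gamma chain. In muscle, type IV collagen, laminins, nidogens and perlecan make the basement membrane that covers each fibre and the satellite cell beneath it, while fibrillar collagens, collagen VI, fibronectin and small proteoglycans fill the interstitial space, where fibroblastic cells are the main source. Fibronectin, collagen VI and tenascin-C are known parts of the satellite cell niche, and matrigel, the coat of the culture dish, is itself a basement membrane extract rich in laminin and type IV collagen.

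Libraries fell into 2 depth classes. In the 13 shallow libraries (7 control, 6 scKO) the total count was 420197 to 968559, and in the 5 deep libraries (control 1 and 2, scKO 6, 7 and 9) it was 4346150 to 5986128. The highest count of any gene was 4096, which equals the number of different sequences of 6 bases, so that a count close to it cannot rise further with depth. Hoxa10 was at 36.7 and 38.5 CPM, that is counts scaled to an effective library size, in the deep controls and 6.63 to 10.02 in the deep scKO libraries, and at 14.9 to 64.7 against 1.89 to 4.81 in the shallow ones, with no overlap. On the first 2 principal components 4 shallow libraries (control 7 to 9, scKO 1) lay away from the remaining 9. For some genes and counts the values without these 4 are given as well. All 9 satellite cell and myoblast markers were present, summing to 8112 to 12127 CPM in shallow and 2761 to 3499 CPM in deep libraries. In the deep libraries Myod1 and Chrna1, among these markers, had counts close to 4096, as had Myog in control 2 and the deep scKO libraries. The deep sum is therefore limited by the counts and cannot be set beside the shallow one. The effective size is the total times a TMM scaling factor over all 18 libraries, which ran from 0.817 to 0.943 for the 13 shallow libraries and from 1.31 to 1.42 for the 5 deep ones. The 14 markers of fibro-adipogenic cells and fibroblasts summed to 150 to 280 CPM in shallow controls, led by Thy1 at 123, Ly6a at 54.2 and Pdgfra at 16.9 CPM on average, while 8 averaged under 2 CPM, with Clec3b and Cfd at 0 counts. Of 6 tendon markers Scx averaged 290.2 CPM there and the other 5 under 2 CPM, with Kera at 0 counts.

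Of the 69 genes, 2 had 0 counts in all 18 libraries (Col6a4 and Col6a6), 64 had at least 1 count in a shallow library and 66 in a deep one. All 69 together took 0.466% to 0.601% of the counts of a shallow library and 0.385% to 0.463% of those of a deep library. To compare genes, CPM were divided by the length of each gene's exons in kilobases. In the shallow controls Sparc, a collagen-binding secreted glycoprotein, led at 479 CPM per kb, followed by Col3a1 at 71.3, Col4a2 at 68.2, Bgn at 61.1, Col5a2 at 42.6, Col18a1 at 38.8, Col5a1 at 33.7, Col4a1 at 26.6, Mfap5 at 25.8 and Col1a2 at 22.5 CPM per kb. The controls thus expressed both the type IV collagen pair of basement membranes and the fibrillar types I, III and V. Col4a1 and Col4a2 stood far above the other type IV chains: Col4a5 was at 0.175 CPM per kb, and Col4a3, Col4a4 and Col4a6 had 2, 9 and 1 counts over all libraries. Among the laminins the beta chain Lamb1 was at 14.6 and Lamb2 at 9.90 CPM per kb and the gamma chain Lamc1 at 5.12, while the highest alpha chain, Lama2, was at 0.667, close to Lama5 at 0.643. Which stretch of a transcript the counts cover is not given in the sources used here, so dividing by length is approximate. The fibroblast proteoglycans decorin (Dcn) at 0.490 and lumican (Lum) at 0.392 CPM per kb ranked low among the genes detected, with 26 and 24 of the 69 genes below them, and Col2a1 of cartilage had 10 counts in all.

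**Figure D1:**
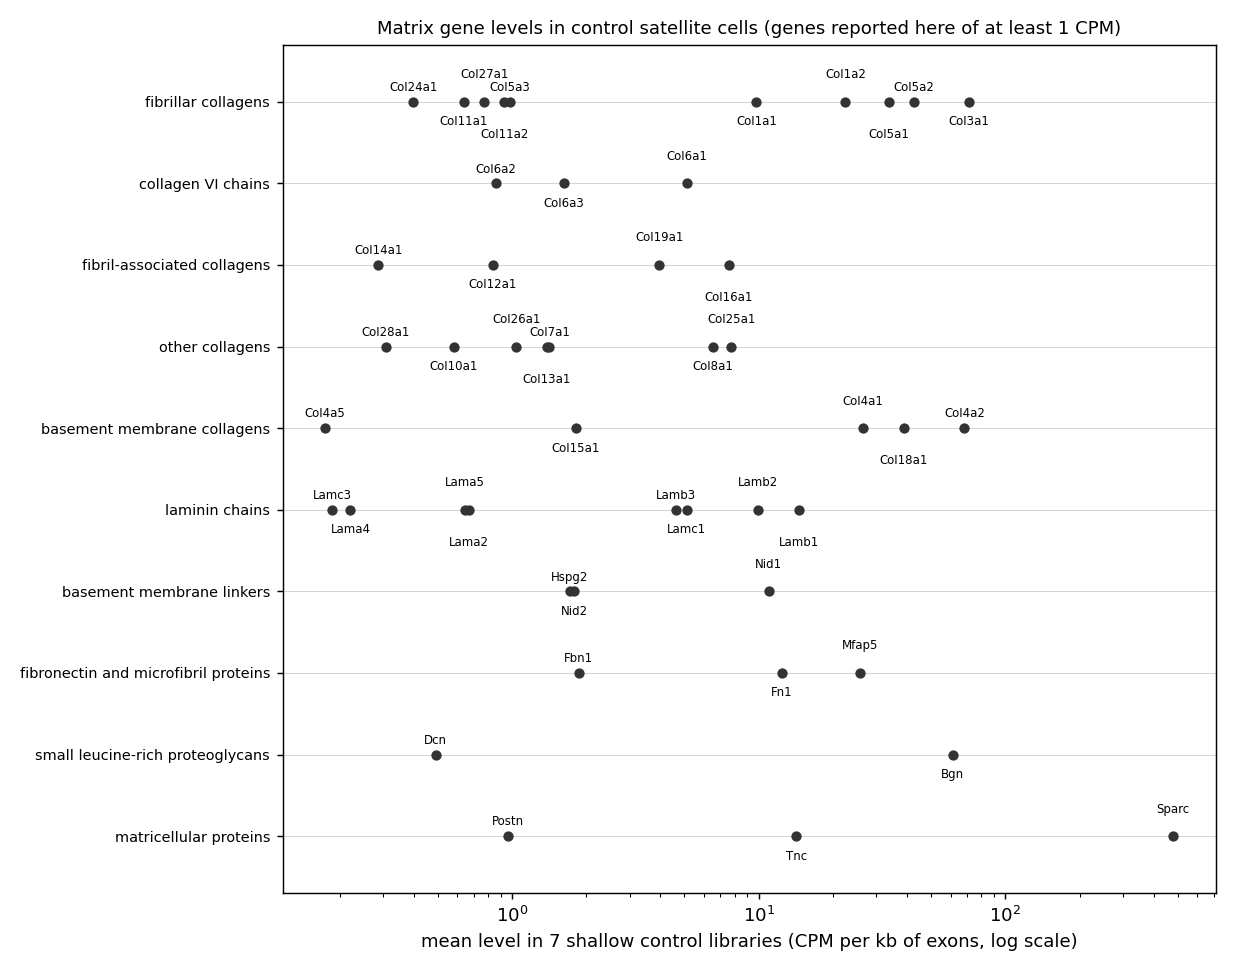
Mean level of the genes reported here of at least 1 CPM in the 7 shallow control libraries, in CPM per kilobase of exons on a log axis, with 1 point per gene and 1 row per kind of matrix protein. Sparc lies highest at 479 CPM per kb, followed by Col3a1 at 71.3 and Col4a2 at 68.2 CPM per kb.

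The levels set across depth classes depended on the scaling. Of the 41 genes with a mean of at least 5 CPM in the shallow controls, 33 were lower and 8 higher in the deep controls, and the median ratio of deep over shallow was 0.539. The ratio ran from 0.0873 for Mfap5 to 2.21 for Nid2. On library totals without the scaling factors 22 were lower and 19 higher, with a median ratio of 0.833. Sparc shows the limit of the counts: 3777 and 3927 counts in the deep controls and 3890 to 3905 in the deep scKO libraries, all close to 4096, so that its deep CPM follow the library total rather than the level of the transcript. Col1a2, Col3a1 and Col5a2 also reached counts over 2048, and 10 of the 69 genes over 1000. For this reason scKO and control were compared within each depth class, and over all libraries with the class as a term.

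In the deep libraries 15 matrix genes passed the test and in the shallow libraries none did. Collagen VI chains Col6a1 and Col6a2, Col15a1, Col19a1, Col25a1, Col10a1, Mfap5 and Postn rose in the deep scKO libraries. The type IV collagen pair Col4a1 and Col4a2, Nid1, Fn1, Fbn1, Tnc and Bgn fell. Fibrillar collagens and laminins had no member past the threshold in either class. Below, deep groups are said not to overlap where every scKO library lies on the same side of both controls. The share of all genes for which this holds was not counted, and for called genes it is no support beyond the test.

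With edgeR's quasi-likelihood test and Benjamini-Hochberg adjustment over all genes tested, at an adjusted p under 0.05, 15 of 47 matrix genes tested in the deep libraries were called (31.9%), against 14.3% of all 13136 genes tested. The 8 that rose compare with a background of 7.31% higher and the 7 that fell with 7.03% lower. At an unadjusted p under 0.05 there were 22 of the 47 (46.8%), beside 29.4% of all genes. The median log2 fold change of scKO over control was 0.04 over the 47 genes and -0.0017 over all genes tested. DESeq2 called 11 of the 15, leaving out Nid1, Col19a1, Fbn1 and Col10a1. When each deep library was left out in turn, Col4a1, Fn1, Tnc, Col6a1, Col15a1, Col25a1 and Mfap5 passed each of the 5 times, and without scKO 7 the number of matrix genes called was 8.

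In the shallow libraries 0 of 26 matrix genes tested were called by edgeR, against 0.0434% of 6906 genes, and 0 by DESeq2. At an unadjusted p under 0.05 there were 4, or 15.4% beside 6.15% of all genes: Col18a1, Fn1, Mfap5 and Nid1. The median log2 fold change was -0.05 over the 26 genes and -0.02 over all genes. Over all 18 libraries with the depth class as a term, 0 of 27 were called by edgeR, against 0.679% of 7662 genes, and 0 by DESeq2. In that fit 5 had an unadjusted p under 0.05, beside 11.9% of all genes: Nid1, Fbn1, Col18a1, Col4a2 and Lama2. Without the 4 libraries that stood apart, the same fit called Col15a1, Col4a1 and Col4a2, with log2 fold changes of 0.76 (adjusted p = 0.0109), -0.35 (adjusted p = 0.0386) and -0.38 (adjusted p = 0.0263).

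The basement membrane collagens moved in both directions. Col4a1 and Col4a2, the chains of the ubiquitous type IV network, lie head to head on chromosome 8 (GRCm38, 11198423 to 11312826 on the minus strand and 11312805 to 11449287 on the plus strand), where their gene models share 22 bases. Col4a1 was at 157 and 128 CPM in the deep controls and at 94.2, 86.4 and 108 CPM in the deep scKO libraries. Col4a2 was at 199 and 169 CPM in the controls and at 141, 116 and 139 CPM in scKO. For both genes each scKO library lay below both controls. In the edgeR fit of the deep libraries Col4a1 fell by 0.58 on the log2 scale (SE 0.11, adjusted p = 0.00523) and Col4a2 by 0.50 (SE 0.11, adjusted p = 0.00771); without scKO 7 the adjusted p of Col4a2 was 0.0513. Shallow Col4a1 ran from 152 over a median of 194 to 231 CPM in the controls and from 167 over 197 to 212 CPM in scKO, wholly inside the control range. Shallow Col4a2 ran from 388 over 454 to 493 CPM in the controls and from 300 over 342 to 560 CPM in scKO, an overlap with a log2 fold change of -0.24 (SE 0.16, adjusted p = 0.824).

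Col15a1 and Col18a1 encode the multiplexins, basement membrane collagens with long interruptions in the helix. Col15a1 was at 9.84 and 9.15 CPM in the deep controls and 16.2, 17.1 and 19.6 CPM in scKO, without overlap, a log2 fold change of 0.88 (SE 0.17, adjusted p = 0.00452, edgeR). Like Col6a2, Col10a1 and Postn it was too low for a test in the shallow libraries, where it had 3 to 9 counts. Col18a1, the source of endostatin, gave in the shallow libraries the smallest p of the matrix genes. It ran from 223 over 271 to 343 CPM in the shallow controls and from 288 over 400 to 548 CPM in scKO, overlapping through control 7, with a log2 fold change of 0.60 (SE 0.16, unadjusted p = 0.00151, adjusted p = 0.485, edgeR). Without the 4 libraries apart the value was 0.60 again (adjusted p = 0.213, edgeR). In the deep libraries Col18a1 was at 135 and 109 CPM in controls and 121, 90.3 and 103 CPM in scKO, which overlap, with a log2 fold change of -0.23 (SE 0.13, adjusted p = 0.25, edgeR).

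Of the linkers that join laminin to type IV collagen, Nid1 (nidogen-1) was the member that passed. It stood at 89.4 and 76.0 CPM in the deep controls and at 65.6, 64.5 and 65.2 CPM in scKO, all below the controls, and fell by 0.36 (SE 0.10, adjusted p = 0.03, edgeR, log2). The call was lost with DESeq2 and without control 1, scKO 6, scKO 7 or scKO 9 (adjusted p 0.0535 to 0.198, edgeR). Shallow Nid1 ran from 46.0 over 64.1 to 126 CPM in the controls and 39.5 over 52.0 to 76.5 CPM in scKO, an overlap, with a log2 fold change of -0.54 (SE 0.24, adjusted p = 0.8, edgeR). Without the 4 libraries apart this value was -0.36 (SE 0.24, unadjusted p = 0.151, adjusted p = 0.699, edgeR). Nid1 has the same sign in both classes, and over all libraries its log2 fold change was -0.46 (SE 0.17, unadjusted p = 0.0115, adjusted p = 0.232, edgeR). Nid2 (nidogen-2) and Hspg2 (perlecan, a heparan sulfate proteoglycan) were not called: their deep log2 fold changes were 0.14 (SE 0.18) and 0.13 (SE 0.13).

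No laminin chain was called in the shallow, the deep or the joint fit. Of 8 tested in the deep libraries 6 were positive and 2 negative, with log2 fold changes from -0.27 (Lamb3) to 1.42 (Lama4), and DESeq2 called 0. At an unadjusted p under 0.05 there were 2 of the 8 (25.0%), among them Lama4, beside 29.4% of all genes. Lama4, an alpha chain of vessel and interstitial basement membranes, rested on 6 and 8 counts in the deep controls and 12 to 27 in scKO (SE 0.49, adjusted p = 0.0679, edgeR), and it was called when no count filter was used or scKO 6 was left out. Lama2, the alpha chain of the muscle basement membrane, was at 10.2 and 11.3 CPM in the deep controls and 13.2, 13.3 and 15.9 CPM in scKO. Those groups did not overlap, but the log2 fold change of 0.37 (SE 0.18) had an adjusted p of 0.173 with edgeR, and over all libraries it was 0.34 (SE 0.16, adjusted p = 0.41). The most abundant chain, Lamb1, had log2 fold changes of -0.05 (SE 0.18, shallow) and -0.14 (SE 0.09, deep), and Lamc1, which pairs with it in most laminins, -0.10 (SE 0.20) and 0.01 (SE 0.14). Lamb2 was at 0.05 (SE 0.17) and 0.25 (SE 0.13).

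Among the fibrillar collagens, which bear tensile load, 0 of 10 tested in the deep libraries were called by edgeR or by DESeq2. An unadjusted p under 0.05 was found for 3 (Col1a1, Col1a2 and Col5a2), or 30.0%, close to the 29.4% of all genes. The 2 chains of type I collagen had opposite signs there. Col1a1 was at 36.2 and 26.4 CPM in the deep controls and 41.7, 39.5 and 44.0 CPM in scKO, without overlap (log2 fold change 0.42, SE 0.14, adjusted p = 0.0622, edgeR), and the gene was called without a count filter or without control 1. Col1a2 was at 350 and 353 CPM in the controls and 313, 283 and 296 CPM in scKO, also without overlap (log2 fold change -0.26, SE 0.10, adjusted p = 0.116, edgeR). Col1a2 is among the genes near the count limit; after correction for identifiers used more than once it was called at -0.39 (adjusted p = 0.0355, edgeR), as was Col5a2 at -0.29 (adjusted p = 0.0434, edgeR). Shallow Col1a1 ran from 39.6 to 123 CPM in the controls and 26.7 to 123 CPM in scKO, and its log2 fold change was -0.0049 (SE 0.32). Col3a1, the type III chain and the highest of the fibrillar genes per kb, ran from 473 over 617 to 1022 CPM in shallow controls and 431 over 489 to 728 CPM in scKO, overlapping, with log2 fold changes of -0.37 (SE 0.19, adjusted p = 0.822) in shallow and -0.12 (SE 0.11, adjusted p = 0.488) in deep libraries by edgeR. Without the 4 libraries apart the shallow value of Col3a1 was -0.10 (SE 0.15, adjusted p = 0.897, edgeR).

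Collagen VI, whose beaded filaments join basement membrane to interstitial matrix, is made from the products of Col6a1, Col6a2 and a longer chain such as Col6a3. Col6a1 was at 9.48 and 7.86 CPM in the deep controls and 16.3, 23.1 and 26.6 CPM in scKO. Col6a2 was at 3.86 and 2.70 CPM in the controls and 6.01, 8.49 and 13.8 CPM in scKO. The groups did not overlap for either gene, and both rose, Col6a1 by 1.34 (SE 0.22, adjusted p = 0.00216) and Col6a2 by 1.54 (SE 0.38, adjusted p = 0.0232) on the log2 scale with edgeR. Col6a2 rested on 22 and 23 counts in the controls and lost its call without control 1, control 2 or scKO 7 (adjusted p = 0.0641, 0.156 and 0.0582, edgeR). Col6a3 had a log2 fold change of 0.31 (SE 0.16, adjusted p = 0.224, edgeR). Shallow Col6a1 ran from 9.03 over 20.3 to 42.0 CPM in the controls and 8.89 over 10.2 to 22.7 CPM in scKO, an overlap with a log2 fold change of the opposite sign, -0.63 (SE 0.35, adjusted p = 0.822, edgeR). Control 8 and 9 held the highest of these, 42.0 and 29.1 CPM, and without the 4 libraries apart the shallow value was -0.20 (SE 0.37, adjusted p = 0.919, edgeR).

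Col6a1 and Col6a2 lie on the minus strand of chromosome 10 (GRCm38, 76708792 to 76726168 and 76595762 to 76623630), 85161 bases apart. RefSeq promoter windows of GRCm38.p6 were found for 48 of the 69 genes, and the 250 bases before the start were searched on both strands for 6 short motifs. The box of Sp1 type, GGGCGG, was in 58.3% of the 48 windows and 33.0% of the 27025 in RefSeq, with a median GC content of 59.0% and 52.0%. Unlike the 48, the 27025 windows were not filtered by genome build. The TATA box, searched as TATAAA, was in 6 of the 48 windows and in 12.98% of all, and the CCAAT box in 31.3% and 34.5%. An AP-1 type site, TGANTCA, was in 2.08% and 6.85%. An E-box form of myogenic factors, CAGCTG, was in 18.8% and 12.7%, and a Hox type site, TTTATNG, which can overlap the TATA box, in 16.7% and 10.2%. The windows of 3 called genes without exon bases are shown because these genes gave large differences in the deep libraries in both directions: Col6a2 (chr10:76623631-76623880, minus strand), Col25a1 (chr3:130180595-130180844, plus strand) and Tnc (chr4:64047016-64047265, minus strand). They were chosen after the values were seen, are written 5′ to 3′ on the strand of the gene, and carry the matches in capitals. The window of Col15a1, a called gene with a deep log2 fold change of 0.88, was also free of exon bases. It held 0 matches of the 6 motifs and is not shown.
Col6a2: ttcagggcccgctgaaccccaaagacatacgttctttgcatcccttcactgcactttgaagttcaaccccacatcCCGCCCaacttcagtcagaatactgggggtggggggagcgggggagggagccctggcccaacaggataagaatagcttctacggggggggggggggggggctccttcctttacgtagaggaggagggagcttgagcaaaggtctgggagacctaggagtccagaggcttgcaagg
Col25a1: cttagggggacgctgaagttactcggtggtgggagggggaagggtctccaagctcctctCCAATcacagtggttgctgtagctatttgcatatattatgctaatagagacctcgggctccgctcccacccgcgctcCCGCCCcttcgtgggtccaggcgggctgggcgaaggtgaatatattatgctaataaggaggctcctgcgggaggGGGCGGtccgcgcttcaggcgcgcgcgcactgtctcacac
Tnc: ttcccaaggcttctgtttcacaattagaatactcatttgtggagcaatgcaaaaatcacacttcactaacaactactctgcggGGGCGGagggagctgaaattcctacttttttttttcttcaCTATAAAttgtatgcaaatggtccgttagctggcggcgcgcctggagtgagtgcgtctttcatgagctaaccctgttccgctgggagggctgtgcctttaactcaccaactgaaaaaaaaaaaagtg
The Col6a2 window holds 1 GGGCGG box on the reverse strand. The Col25a1 window holds 1 CCAAT and 2 GGGCGG boxes, of which 1 is on the reverse strand. In the Tnc window a GGGCGG box lies before the run CTATAAA, in which TATAAA and the reverse form of TTTATNG overlap. These are matches of letters and say nothing of binding.

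Among the collagens of fibril surfaces Col19a1, a collagen reported in differentiating muscle cells, was called. It was at 10.9 and 16.0 CPM in the deep controls and 20.2, 22.1 and 20.3 CPM in scKO, all above the controls, and rose by 0.60 (SE 0.18, adjusted p = 0.0363, edgeR, log2). The call was lost with DESeq2 and in 4 of the 5 fits that leave out a library, and without control 1 the value was 0.36 (adjusted p = 0.233, edgeR). Col16a1, the highest of these genes per kb, had a log2 fold change of 0.26 (SE 0.16, adjusted p = 0.311) and Col12a1 one of -0.10 (SE 0.22, adjusted p = 0.809) in the deep edgeR fit; in shallow libraries Col19a1 and Col16a1 were at -0.07 (SE 0.27) and -0.12 (SE 0.29).

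Of the remaining collagens Col25a1, a transmembrane collagen needed in muscle for motor innervation, had the smallest adjusted p of all matrix genes. It was at 38.6 and 52.2 CPM in the deep controls and 125, 110 and 94.6 CPM in scKO. Every deep scKO library was above both controls, and the gene rose by 1.25 on the log2 scale (SE 0.15, adjusted p = 0.000672, edgeR). In the shallow libraries it ran from 38.7 over 108 to 138 CPM in the controls and 41.7 over 82.4 to 191 CPM in scKO, which overlap, with a log2 fold change of -0.09 (SE 0.36, adjusted p = 0.971, edgeR). Col10a1, known from hypertrophic cartilage, was at 2.28 and 2.00 CPM in the deep controls and 4.41, 3.45 and 6.21 CPM in scKO, without overlap, and rose by 1.12 (SE 0.34, adjusted p = 0.0431, edgeR, log2). It rested on 13 to 45 counts per library and passed in only 1 of the 5 fits that leave out a library. Col8a1, a short-chain network collagen, had log2 fold changes of -0.23 (SE 0.21, shallow) and -0.13 (SE 0.17, deep) and was not called.

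Fn1 encodes fibronectin, the adhesive glycoprotein that cells assemble into fibrils through integrins. It was at 269 and 195 CPM in the deep controls and 158, 135 and 162 CPM in scKO. All scKO libraries were below both controls, and Fn1 fell by 0.63 on the log2 scale (SE 0.13, adjusted p = 0.0101, edgeR). In the shallow libraries it ran from 100 over 147 to 228 CPM in controls and 149 over 215 to 315 CPM in scKO. There the groups overlapped and the log2 fold change had the opposite sign, 0.58 (SE 0.20, unadjusted p = 0.0094, adjusted p = 0.721, edgeR), and 0.49 (adjusted p = 0.583) without the 4 libraries apart. Mfap5, a microfibril-associated glycoprotein, showed the reverse pattern. It was at 7.73 and 8.45 CPM in the deep controls and 17.0, 19.2 and 18.5 CPM in scKO, without overlap, and rose by 1.15 (SE 0.17, adjusted p = 0.000913, edgeR, log2). Shallow Mfap5 ran from 49.0 over 103 to 128 CPM in controls and 17.8 over 46.4 to 81.2 CPM in scKO, an overlap, with a log2 fold change of -0.82 (SE 0.30, unadjusted p = 0.0126, adjusted p = 0.729, edgeR). Control 7, 8 and 9 were among the 4 highest of the shallow controls for Mfap5, and without the 4 libraries apart its value was -0.45 (SE 0.34, adjusted p = 0.745, edgeR).

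Fbn1, fibrillin-1 of the microfibrils, was at 20.0 and 14.7 CPM in the deep controls and 10.02, 9.35 and 13.3 CPM in scKO, all below the controls. It fell by 0.67 on the log2 scale (SE 0.20, adjusted p = 0.0364, edgeR), a call lost with DESeq2 (adjusted p = 0.077) and without control 1, scKO 6 or scKO 7 (adjusted p 0.0868 to 0.225, edgeR). Shallow Fbn1 had the same sign, -0.49 (SE 0.33, adjusted p = 0.824, edgeR), and over all libraries the value was -0.57 (SE 0.21, unadjusted p = 0.0123, adjusted p = 0.239). A gene on the opposite strand, Gm9913, covers 20.1% of the exons of Fbn1, and since the use of strand in the counting is not given, reads of the pair cannot be told apart. Such overlaps were 2.50% or less for Fn1, Tnc and Nid1. Mfap2, a small microfibril protein, had 4 to 12 counts in deep libraries and a log2 fold change of 1.19 (SE 0.50, adjusted p = 0.13, edgeR).

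Of the small leucine-rich proteoglycans, which bind collagen fibrils and growth factors, biglycan (Bgn) was the abundant one. Bgn was at 209 and 178 CPM in the deep controls and 157, 134 and 160 CPM in scKO, all below the controls, and fell by 0.38 (SE 0.10, adjusted p = 0.0281, edgeR, log2). It lost its call without control 1 or scKO 7 (adjusted p = 0.137 and 0.151, edgeR). The shallow value, -0.29 (SE 0.21, adjusted p = 0.824), had the same sign, with overlapping ranges of 253 over 382 to 523 CPM in controls and 217 over 271 to 467 CPM in scKO. Dcn, with 12 and 15 counts in the deep controls and 24 to 37 in scKO, had a log2 fold change of 1.06 (SE 0.35, adjusted p = 0.0562, edgeR).

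The matricellular proteins, which modulate adhesion rather than bear load, moved apart from each other. Tenascin-C (Tnc) was at 92.9 and 69.2 CPM in the deep controls and 52.6, 39.4 and 44.7 CPM in scKO, without overlap, and fell by 0.84 on the log2 scale (SE 0.14, adjusted p = 0.00301, edgeR). Shallow Tnc ran from 74.4 over 111 to 140 CPM in controls and 91.4 over 138 to 158 CPM in scKO, which overlap, with a log2 fold change of 0.21 (SE 0.19, adjusted p = 0.852, edgeR). Periostin (Postn) was at 3.51 and 3.17 CPM in the deep controls and 6.68, 16.4 and 18.4 CPM in scKO. It rose by 2.04 (SE 0.49, adjusted p = 0.0349, edgeR, log2), the widest difference of the matrix genes in the deep libraries, on 20 and 27 counts in the controls and 50, 133 and 133 in scKO. It lost the call without either control or without scKO 7 or 9 (adjusted p 0.0549 to 0.277, edgeR). Sparc had a log2 fold change of 0.10 (SE 0.13) in shallow libraries, where counts were 552 to 1880 and below the limit.

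**Figure D2:**
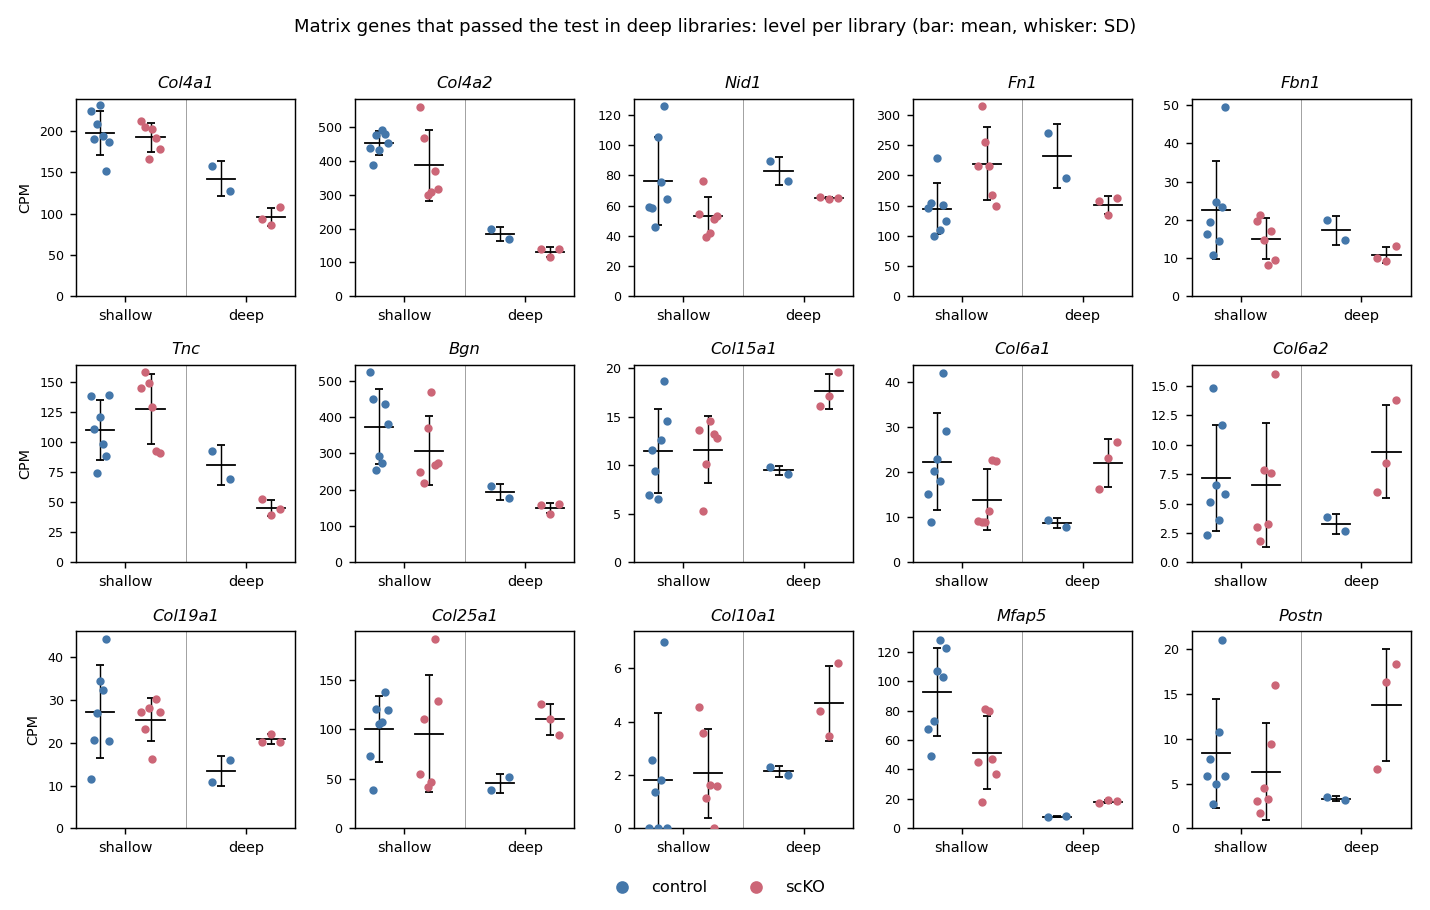
Level in CPM of the 15 genes called in the deep libraries, 1 panel per gene and 1 point per library (blue control, red scKO; bar mean, whisker SD; shallow libraries left and deep right of the line). In every panel the deep groups do not overlap, while for the 11 genes tested in the shallow libraries the shallow groups do. The genes were chosen by the deep test, and groups of 2 and 3 libraries separate more easily than groups of 7 and 6. The contrast is therefore no evidence of a difference between the classes.

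The difference between the classes was tested as an interaction, the deep effect minus the shallow effect. By edgeR 0 of 27 matrix genes were called, beside 0.0% of 7662 genes, and 7 had an unadjusted p under 0.05, beside 6.17% of all genes; DESeq2 was not run for this term. Col6a1 and Mfap5 each gave 1.96 on the log2 scale (SE 0.46 and 0.48), Col25a1 1.35, Col4a1 -0.51, Col18a1 -0.83, Tnc -1.05 and Fn1 -1.21, and the lowest adjusted p was 0.388. Of the 26 genes tested in both classes 11 had the same sign and 15 opposite signs, and 13 and 13 without the 4 libraries apart. Of the 11 called in the deep libraries and tested in the shallow ones, Col4a1, Col4a2, Nid1, Fbn1 and Bgn had the same sign and Fn1, Tnc, Col6a1, Col19a1, Col25a1 and Mfap5 the opposite. Without the 4 libraries apart the shallow values of Col19a1 and Col25a1 were 0.13 and 0.27, the sign of their deep values, which left 7 of the same and 4 of opposite sign. Without a filter on low counts the interaction was called for Col6a1, Mfap5, Postn and Fn1. These are 4 of 67 matrix genes tested in that fit, which called 30 of all genes.

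**Figure D3:**
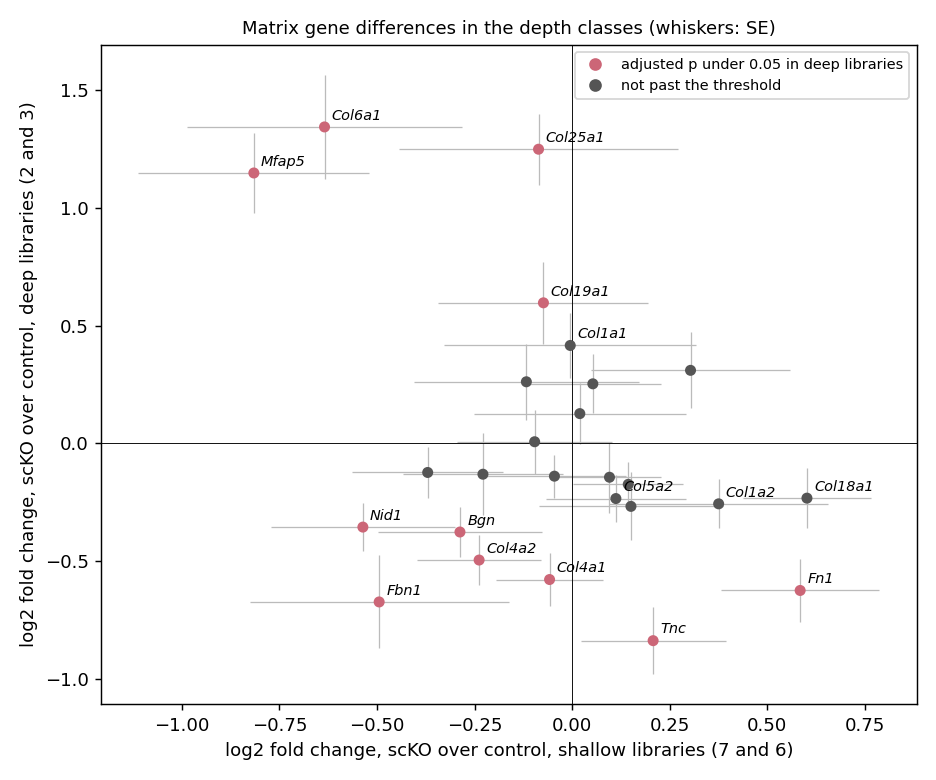
Log2 fold change of scKO over control in the shallow (x axis) and deep (y axis) libraries for the 26 genes tested in both, with SE as whiskers; red points were called in the deep libraries. The 5 called genes of the same sign lie in the lower left, and Mfap5, Col6a1, Fn1 and Tnc lie in quadrants of opposite sign.

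Markers of other cell types moved with some of these genes. The 8 Schwann cell markers summed to 79.5 and 88.2 CPM in the deep controls and 131 to 173 CPM in the deep scKO libraries; Sox10, Erbb3, Ngfr and Cdh19 rose there, 4 of the 7 tested, beside 7.31% of all genes. In the shallow libraries the sum was 120 to 498 CPM in controls, highest in control 6 to 9, and 88.9 to 231 CPM in scKO, and 0 of the 3 markers tested there were called (edgeR), with 2 at an unadjusted p under 0.05, Sox10 and Ngfr, both lower in scKO. The shallow means of Mfap5 (92.7 ± 29.8 CPM in 7 controls, 51.3 ± 24.8 in 6 scKO libraries, SD) and Col6a1 (22.4 ± 10.7 and 13.9 ± 6.77 CPM) were likewise higher in the controls, and those of the deep libraries in scKO. Of 8 smooth muscle and pericyte markers tested in the deep libraries Myh11, Smtn and Abcc9 rose, beside 7.31% of all genes. The sum of all 9 such markers was 835 and 1072 CPM in controls and 935 to 1003 CPM in scKO. Acta2 made up most of it, at 477 and 703 CPM in controls and 500 to 563 CPM in scKO. In each deep library Acta2 was above Sparc, whose counts there were close to the limit. That sum is therefore limited by the counts and cannot show whether these markers rose together. Fibro-adipogenic and fibroblast markers gave 0 of 7 called in the deep libraries (edgeR), with sums of 112 and 118 CPM in controls and 118 to 127 CPM in scKO, and Clec3b and Cfd at 0 counts. Of 9 satellite cell and myoblast markers tested in the deep libraries 0 rose and 1 fell, beside 14.3% of all genes called. It was Myf5, a myogenic regulator, at -0.33 on the log2 scale (adjusted p = 0.035, edgeR). Pax7, Myod1 and Myog were not called. In control 2 Myog was at 461 CPM, the level of Sparc on 3927 counts, and Myod1 and Chrna1 were higher. For these 3 markers near the limit of the counts a missing call cannot show that the level was unchanged. The part of these cell types in the matrix results was not tested, and in bulk RNA fewer cells of a type cannot be told apart from less RNA per cell.

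**Figure D4:**
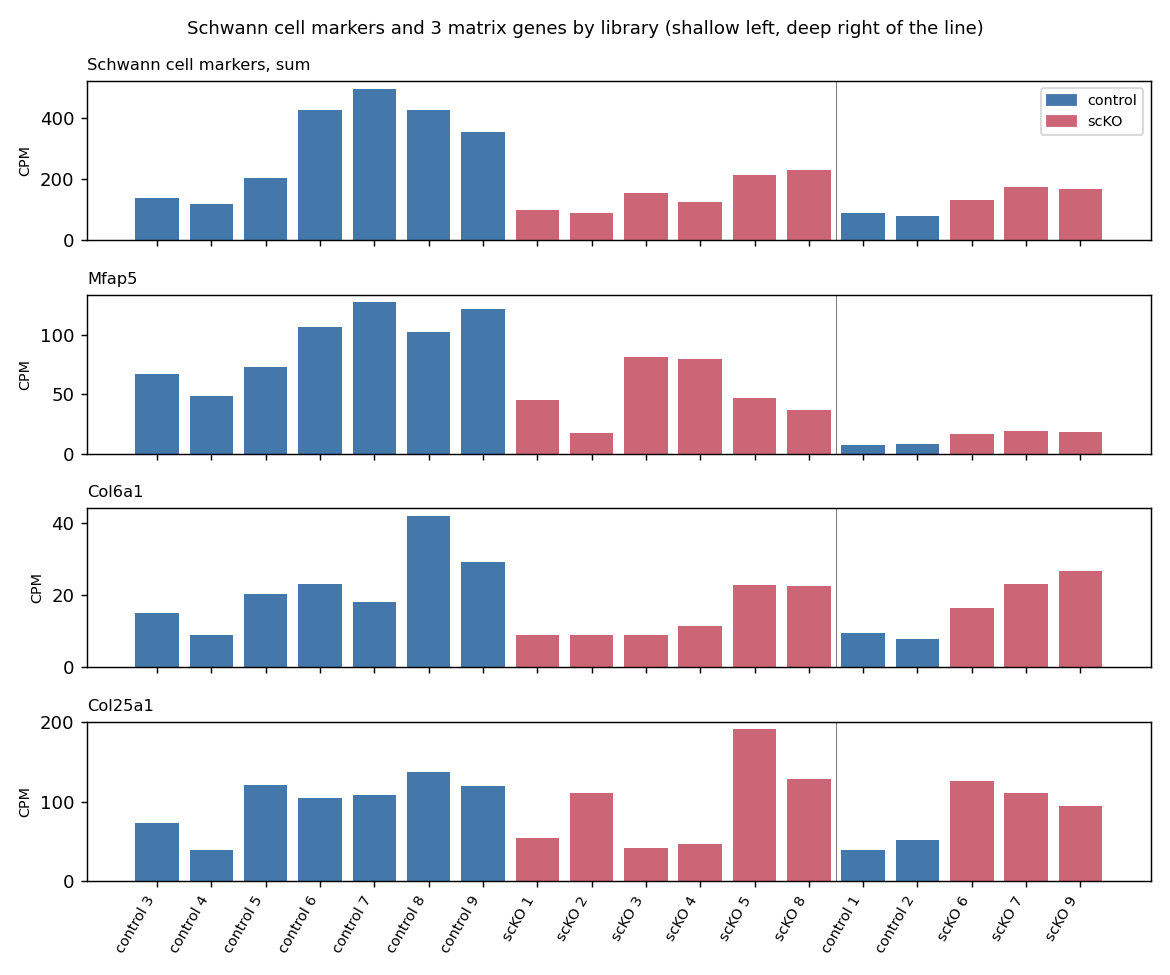
Sum of 8 Schwann cell markers and the levels of Mfap5, Col6a1 and Col25a1 in CPM for each library (bars; blue control, red scKO; shallow left and deep right of the line). In the deep libraries all 4 panels are higher in scKO, and among the shallow ones the marker sum is highest in control 6 to 9.

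Genes that make, bind or cut the matrix were counted from 4 lists of 121 genes in all. In the shallow fit and the fit over all libraries edgeR called none of them, and in the deep fit their counts stand beside 14.3% of all genes called. Of 26 genes of collagen folding and processing tested in the deep libraries, 0 rose and 2 fell, the lysyl hydroxylase Plod3 at -0.38 and the procollagen enhancer Pcolce2 at -0.87 on the log2 scale. Of 23 matrix receptors 3 rose, namely Itgb5 (0.62), dystroglycan Dag1 (0.36) and the laminin receptor Bcam (0.84), and 2 fell, the laminin-binding integrin Itga6 (-0.38) and the syndecan Sdc3 (-0.48). Of 21 proteases and inhibitors 4 rose (Mmp15, Adamts1, Adamts5 and Serpine2, 0.33 to 0.76) and 2 fell, the membrane collagenase Mmp14 (-0.88) and urokinase Plau (-0.56). Of 30 other matrix proteins the small proteoglycan Ogn rose (0.75) and 6 fell, Fbln1, Efemp2, Ltbp2, Vcan, Thbs1 and Ccn4, by values from -0.37 (Fbln1) to -1.11 (Ltbp2).

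The 22 genes too low for any test had 0 to 40 counts over all libraries. They were Col2a1 of cartilage fibrils; the type IV chains Col4a3, Col4a4 and Col4a6; Col6a4, Col6a5 and Col6a6; Col8a2, Col9a1, Col9a2, Col9a3, Col14a1, Col17a1, Col20a1, Col22a1, Col23a1 and Col28a1; the laminin chains Lama1, Lama3 and Lamc3; and Fbn2 and Lum. For Col6a4 and Col6a6 a count of 0 allows up to 3 counts per library, which is 0.527 CPM in control 1, the deep library of lowest total. Further genes tested in the deep libraries and not called were Col4a5, Col5a1, Col5a3, Col7a1, Col11a1, Col11a2, Col13a1, Col24a1, Col26a1, Col27a1 and Lama5. Of these, Col11a2 (0.90, SE 0.45) and Col7a1 (-0.66, SE 0.40) had the widest log2 fold changes, on at most 61 counts per library. Nid2 and Col13a1 were tested only in the deep libraries; in the shallow controls they averaged 9.27 and 6.37 CPM and in shallow scKO 3.91 and 2.51 CPM, on at most 10 counts per library.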

How the data were processed

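RNA of 18 libraries of cultured mouse satellite cells was analysed from the table of raw counts that the authors deposited, 1 column per library; that they are counts of unique molecular identifiers (UMIs) is per the name of the table. The submitters' processing notes name HISAT2, HTSeq and the rat build Rnor_6.0, while the identifiers are mouse Ensembl genes; versions, settings, annotation release, UMI length and strand are not given in the sources used here. Symbols came from a table of mouse Ensembl identifiers, and biotypes and exon lengths from GENCODE M21 (GRCm38); 313 features without a symbol held 0.0410% of counts and stayed out of library sizes and tests.

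Groups came from the titles. Fits used edgeR 4.0.16 in R 4.3.3: filterByExpr, TMM, robust glmQLFit and glmQLFTest, with Benjamini-Hochberg adjustment over all genes tested and a threshold of 0.05, in shallow libraries (at most 2000000 counts), deep libraries, all libraries with depth class, and with the interaction. SE is the log2 fold change over the root of F. CPM use total counts times TMM factors found over all 18 libraries (0.817 to 1.42); CPM on unscaled totals were tried after seeing the data. Alternatives were DESeq2 1.42.0, its size factors, other count filters, correction for UMI collisions, a replicate block and leaving out libraries. Some genes are not reported here by name. Named are all genes called, and per kind of protein the 3 of smallest p over all libraries and the 2 of highest level. The members and lists were chosen with earlier results of these data known. On simulated counts edgeR recovered, in the deep libraries, 75 of 96 genes changed 2-fold and 95 of 98 changed 4-fold. In the shallow libraries it recovered 66 of 95 and 91 of 93. Calls at unchanged genes were 13 in the deep and 12 in the shallow libraries. The simulated counts had no upper limit, so the simulation does not cover genes near the limit of the counts. Depth sets precision: in shallow libraries 1 count is over 1 CPM.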

Additional observations from a re-analysis of the deposited data

Results flagged for a closer look

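In the 7 shallow controls 4 genes had 1 library far above the rest, by Dixon's criterion at the 95% level. Col1a1 was at 123.1 CPM in control 6, with the next library at 73.32 CPM. Fn1 was at 228.1 CPM in control 6 and 153.6 CPM in the next. Col16a1 was at 103.4 CPM in control 6 and 55.34 CPM in the next. Fbn1 was at 49.51 CPM in control 9 and 24.61 CPM in the next. These are 4 of 52 groups examined, and chance alone flags about 1 in 20 groups. Control 6 was the library for 3 of the 4 genes, and it also held 426.6 CPM of Schwann cell markers; whether these go together was not tested.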

How the results depend on the processing

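In the deep libraries the number of matrix genes called was 15 and ran from 8 (without scKO 7) to 15 when 1 library was left out, 11 with DESeq2, 17 with UMI collisions corrected and 18 without a count filter. Over all genes it was 1884, and 996 without scKO 7. No called deep gene changed sign in 150 combinations of gene and alternative, and 29 lost the call. The alternatives reuse the libraries in which the genes were called, so the kept signs are no independent support. Of genes not called, 12 of 318 such combinations were: Col1a1, Lama4 and Dcn without a count filter, Col1a2 and Col5a2 with collisions corrected, and the rest without control 1 (Col1a1, Dcn), control 2 (Sparc, Col7a1, Col5a2) or scKO 6 (Lama4, Col11a2). Over all libraries the number was 0, and it was 2 without a count filter (Col6a2 and Postn) and 3 without the 4 libraries apart. It was 1 without scKO 1 (Col4a2), and 0 to 1 with 1 library left out. All genes called were 52, and 359 without a count filter and 617 without the 4 libraries apart. They were 216 without scKO 1 and 14 with the replicate block. For the interaction the number of matrix genes called was 0, and 4 without a count filter, where 30 of all genes were called. In the shallow libraries it was 0 under every alternative run, while 40 of 520 single values, none called, changed sign. The median over deep genes was 0.04, and ran from -0.03 (without scKO 6) to 0.18 (without control 2) with 1 library left out.

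Same-numbered libraries did not deviate together throughout: their correlation ran from -0.066 to 0.249, so the numbers were not taken to pair the libraries. With the replicate block 0 matrix genes were called in the shallow libraries and 0 over all libraries, and shallow values of Col18a1 and Mfap5 were 0.40 (unadjusted p = 0.0455, edgeR) and -0.22; the deep groups share no number, so no block could be fitted there. Depth limits the shallow comparison, in which 26 genes could be tested against 47. In deep libraries Sparc, Col1a2, Col3a1 and Col5a2 came closest to the limit of the counts, but correction for collisions moved other genes as well. The deep log2 fold change of Fn1 went from -0.63 to -0.75, that of Col4a2 from -0.50 to -0.57 and that of Col25a1 from 1.25 to 1.34. For Col15a1, of lower counts, it went from 0.88 to 0.89. The cause of the differences between the alternatives was not tested.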
